A study of Rattus norvegicus with 6 samples.

Results

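The mitochondrial respiratory chain and ATP synthase were described in rat liver through the 85 rows, of 30957 in the gene table, whose gene names follow the nuclear naming patterns of the subunits (Nduf a, b, c, s or v with a number, Sdh a to d, Uqcr, Cox4 to Cox8 with a letter a to c, and Atp5 with a letter). Complex I had 36 rows, complex II 4, complex III 8, complex IV 18 and complex V, the ATP synthase, 19. The livers came from female Sprague Dawley rats, bought as weanlings and made pseudo germ-free with repeated antibiotic courses, which every rat of both groups received. The t-DHEA group (3 livers) was then gavaged daily for a fortnight with faecal pellets pooled from rats injected with DHEA, an androgen precursor used to induce a polycystic ovary-like state, and the t-PBS group (3 livers) with pellets pooled from rats injected with PBS. Donor pellets were pooled and recipients were housed in pairs, so the livers of a group shared their inoculum. Whole liver RNA was sequenced, and in such bulk tissue fewer cells of a type and less RNA per cell cannot be told apart.

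Electrons from NADH and succinate enter the chain at complex I (NADH dehydrogenase) and complex II (succinate dehydrogenase), pass through complex III (ubiquinol-cytochrome c reductase) to complex IV (cytochrome c oxidase), and the proton gradient that complexes I, III and IV build drives the ATP synthase. Most subunits are encoded in the nucleus, and a small set that includes the central proton-pumping and oxygen-reducing subunits is encoded by the mitochondrial genome. Hepatocytes are rich in mitochondria and depend on the chain for fatty acid oxidation, urea synthesis and gluconeogenesis.

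Depth was similar in both groups, with 12348511 to 14316886 counts on genes per liver, and a count of 0 allowed up to 3 counts, or 0.21 to 0.243 CPM (counts scaled to library size) depending on the liver. Albumin took 10.6% to 13.5% of the counts, while the 7 skeletal and heart muscle markers in the table summed to 0.248 to 1.26 CPM, with Mb, Actc1 and Myh7 at 0, so the liver label held at these markers. Markers of the liver surface did differ between the groups. The summed mesothelial markers were 27.4, 34.1 and 29.1 CPM in t-PBS and 8.59, 2.99 and 14.3 CPM in t-DHEA livers, while red blood cell markers were at 284, 281 and 185 CPM in t-PBS and 304, 590 and 368 CPM in t-DHEA. The part of these differences in the values below was not tested.

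Of the 85 rows, 73 had enough counts to be tested, namely 33 of complex I, 4 of complex II, 7 of complex III, 12 of complex IV and 17 of complex V. None of them passed the criteria of the study, an unadjusted p below 0.05 with a fold change above 1.2 in either direction, in edgeR's quasi-likelihood test on the counts. Across all 12210 genes tested, 604 passed (4.95%). Without the fold change criterion, 0 of the 73 rows and 5.19% of all genes had an unadjusted p below 0.05, and after Benjamini-Hochberg adjustment over all genes no row and 0% of all genes passed. DESeq2 called 414 genes across the table by the same criteria and put 24 genes at an adjusted p below 0.05. DESeq2 and limma on FPKM (fragments scaled to exon length and depth) also called 0 of the 73 rows, and none passed after adjustment. The lowest p among the rows was 0.0815 (edgeR's quasi-likelihood test, adjusted p = 0.974), for Atp5i.

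A p above the threshold does not show that the groups were alike, so the intervals of the differences were examined. Log2 fold changes of t-DHEA over t-PBS ran from -0.21 for Ndufb8 to 0.25 for Ndufv3-ps1. The 95% interval lay within 1.2-fold in either direction for 17 of the 73 rows and within 1.5-fold for 69 of them. These were among the better measured transcripts of the table, since their median standard error was 0.11 on the log2 scale against 0.15 for all genes tested. A change above 1.5-fold was thus outside the interval for nearly all subunits, whereas one of 1.2-fold could be placed outside it for a minority.

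**Figure D1:**
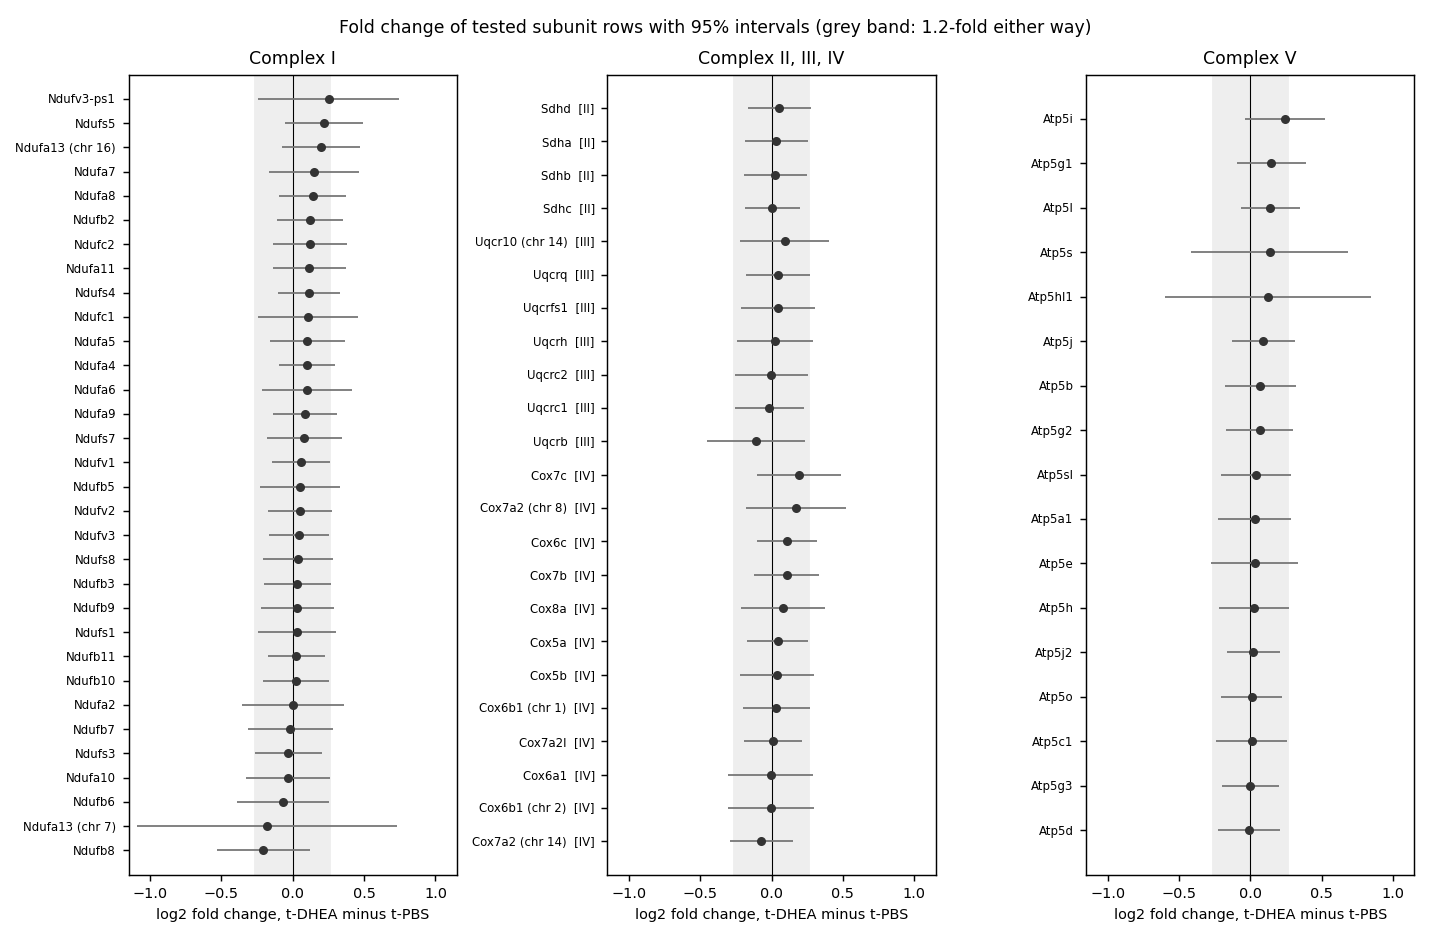
Log2 fold change of t-DHEA over t-PBS livers for 72 of the 73 tested subunit rows (points) with 95% intervals (lines), by complex; the grey band spans 1.2-fold in either direction. Every interval drawn includes 0, and the widest belong to the weakly counted single-exon row Ndufa13 on chromosome 7 and to Atp5hl1.

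The estimates leaned to 1 side. The log2 fold change was above 0 for 58 of 73 rows (79.5%), against 6148 of 12210 genes tested (50.4%). Its median was 0.05 for complex I, 0.03 for complex II, 0.02 for complex III, 0.04 for complex IV and 0.04 for complex V, with 0.00 for all genes tested. With each liver left out in turn, the median ranged from 0.03 to 0.10 for complex I, from -0.02 to 0.07 for complex II, from -0.02 to 0.12 for complex III, from -0.01 to 0.12 for complex IV and from 0.02 to 0.10 for complex V. The highest values came without t-DHEA rat 1 for complexes I, III, IV and V. Without t-PBS rat 1 the medians of complexes II, III and IV were all below 0, at -0.02, -0.01 and -0.01, and without t-DHEA rat 3 that of complex III was -0.02. In the fit to all livers, each median was smaller than the standard deviation of the complex median between livers. That standard deviation was 0.07 for complex II, 0.08 for complex V, 0.09 for complex I and 0.12 for complexes III and IV. With a liver left out, the highest medians of complexes I, IV and V exceeded it, whereas those of complexes II and III did not. The values above it were 0.0992, 0.124 and 0.102, against 0.0852, 0.118 and 0.083 for complexes I, IV and V. On deposited FPKM values, where the median of all genes was itself shifted to -0.04, the medians were 0.02 for complex I, -0.01 for complex II, -0.03 for complex III, and 0.00 for complexes IV and V.

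Calls appeared when single livers were left out, but at shares near or below those of the whole table. Without t-DHEA rat 1, 5 of the 73 rows (6.85%) were called, all higher in t-DHEA (Ndufa13 on chromosome 16, Ndufa7, Cox7c, Atp5i and Ndufv3-ps1), and 6.01% of all genes. Without t-PBS rat 3, Ndufb8 alone (1.37% of the rows) was called, as lower in t-DHEA, and 5.5% of all genes. Leaving out any of the other 4 livers gave 0 calls, and no row passed after adjustment in any of these fits.

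The nuclear rows of complex I spanned a wide range of levels. Ndufa4, which was first assigned to complex I and is now counted as a subunit of complex IV, was the most abundant per length at 186 FPKM, followed by Ndufa11, a membrane-arm subunit, at 156 FPKM. Among the core subunits, which carry NADH oxidation and the iron-sulphur clusters, Ndufs1, Ndufs3, Ndufs7, Ndufs8, Ndufv1 and Ndufv2 lay between 34.0 and 116 FPKM. Their log2 fold changes stayed between -0.03 (Ndufs3) and 0.08 (Ndufs7). The accessory subunits of the A series had a median of 0.10 over 11 rows, counting Ndufa4 and both rows of Ndufa13. Those of the B and C series had a median of 0.03 over 11 rows. For those of the S and V series (Ndufs4, Ndufs5, Ndufv3 and Ndufv3-ps1) it was 0.17 over 4 rows, all above 0.

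Ndufs5, a small accessory subunit of complex I on chromosome 5 (Rnor_6.0, 141390580 to 141405453), had the lowest p of the complex. Among the t-PBS livers it reached 11.99, 14.6 and 14.9 CPM, and among the t-DHEA livers 16.02, 16.5 and 15.8 CPM. The groups did not overlap, with t-PBS rat 1 lowest, and the log2 fold change was 0.22 ± 0.12 (SE, adjusted p = 0.986 in edgeR's quasi-likelihood test). Without t-PBS rat 1 it was 0.13. Non-overlapping groups with t-DHEA higher were seen for 3 of the 73 rows, Ndufs5, Ndufa4 and Atp5l, and for 4.66% of all genes tested. The opposite order, t-DHEA lower without overlap, was seen for 0 of the rows and for 5.42% of all genes. Only Ndufs5 kept the separation on FPKM values, for Ndufa4 and Atp5l overlapped between the groups on that scale.

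Ndufb8, a membrane-arm subunit widely used as a protein marker of assembled complex I, had the lowest estimate of all rows. Its level was 55.2, 72.6 and 49.0 CPM in t-PBS and 48.8, 53.6 and 50.8 CPM in t-DHEA livers. The t-PBS livers were spread widely, with t-PBS rat 2 the highest of the 6, whereas the t-DHEA livers lay close together in the lower part of that range, with t-DHEA rat 1 just below it. The log2 fold change was -0.21 ± 0.14 (SE, adjusted p = 0.986 in edgeR's quasi-likelihood test). Without t-PBS rat 2 the estimate was -0.03, and without t-PBS rat 3 it was -0.32. Ndufa13 (GRIM-19), an accessory subunit needed for assembly of the complex, read 28.3, 33.0 and 30.4 CPM in t-PBS and 30.5, 35.8 and 38.7 CPM in t-DHEA at its spliced locus on chromosome 16, with overlapping groups and a log2 fold change of 0.20 ± 0.12 (SE), which was 0.12 without t-DHEA rat 3.

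The 4 subunits of complex II had similar levels. Sdha, the flavoprotein that oxidises succinate, had 145 FPKM, Sdhd and Sdhc, the membrane anchors, 139 and 79.2 FPKM, and Sdhb, the iron-sulphur subunit, 112 FPKM. All 4 log2 fold changes were above 0 and small, from 0.01 for Sdhc to 0.05 for Sdhd. Each of the 4 was lowest in t-PBS rat 1, and without this rat the median of the complex was -0.02. The summed level of the complex was 647, 732 and 699 CPM in t-PBS and 699, 686 and 743 CPM in t-DHEA livers, so the groups overlapped.

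Differences at the large subunits of complex III were small. Uqcrc1 and Uqcrc2, the core proteins, and Uqcrfs1, the Rieske iron-sulphur protein that hands electrons to cytochrome c1, had log2 fold changes of -0.02, 0.00 and 0.05. Among the small subunits, the estimates ran from -0.11 for Uqcrb to 0.09 for Uqcr10 on chromosome 14. Uqcrb was also the least abundant tested row of the complex, at 10.4 FPKM, although its product is present in equal number with the other subunits. A single-exon row on chromosome 1, named only as similar to the same binding protein (LOC685596), held 4376 counts over the 6 livers against 856 at Uqcrb.

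Of the 18 rows of complex IV, Cox6c and Cox6a1, small nuclear subunits of the oxidase, had the highest levels at 313 and 251 FPKM. Cox7c gave the lowest p of the complex. It was at 56.0, 65.6 and 65.4 CPM in t-PBS and at 58.9, 78.3 and 76.5 CPM in t-DHEA livers. The groups overlapped because t-DHEA rat 1 lay within the t-PBS range, and the log2 fold change was 0.19 ± 0.13 (SE, adjusted p = 0.986 in edgeR's quasi-likelihood test). Leaving out t-DHEA rat 1 raised it to 0.31, where it met the criteria, and leaving out either t-PBS rat 1 or t-DHEA rat 2 gave 0.12. Cox5a and Cox5b, subunits bound to the catalytic core, differed by 0.04 each, and Cox7a2l, a factor that joins the oxidase to complex III in supercomplexes, by 0.01.

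**Figure D2:**
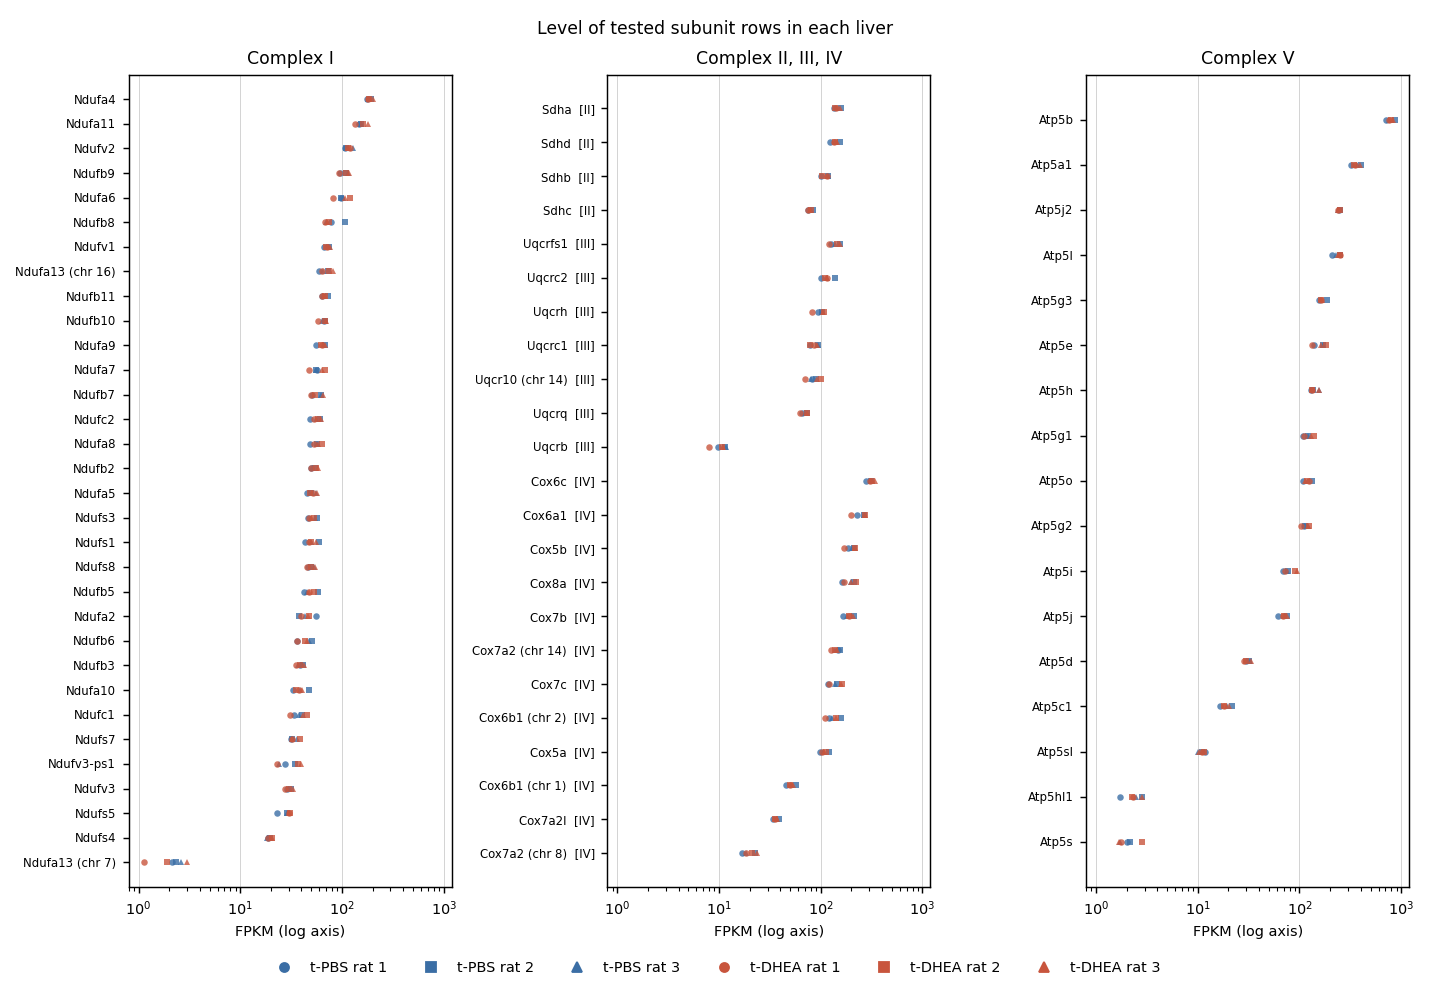
FPKM (log axis) of 72 of the 73 tested subunit rows in each liver, by complex; colour gives the group and shape the rat. Levels span from about 2 FPKM for Atp5s and Ndufa13 on chromosome 7 to 784 FPKM for Atp5b, and the 6 livers of a row lie close together on this scale.

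Among the nuclear rows matched by name, the ATP synthase held the most abundant transcripts. Atp5b, the catalytic beta subunit, averaged 776 ± 79.1 FPKM in t-PBS and 792 ± 42.0 FPKM in t-DHEA livers (SD, n = 3 each), and Atp5a1, the alpha subunit of the same head, 365 ± 41.0 and 362 ± 25.6 FPKM. Their log2 fold changes were 0.07 and 0.03. Atp5c1 and Atp5d, the gamma and delta subunits of the central shaft, appeared far lower at 18.9 and 30.9 FPKM. However, their summed exon lengths, as implied by counts and FPKM, were 9764 and 3267 bases, while the median over the subunits was 711 bases. Atp5g1, Atp5g2 and Atp5g3, whose precursors give 1 identical mature c subunit of the rotor ring, were at 122, 116 and 166 FPKM, and their log2 fold changes were 0.15, 0.07 and 0.00. For Atp5g1 the estimate became 0.23 when t-DHEA rat 1 was left out and 0.08 when t-DHEA rat 2 was.

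Atp5i, subunit e at the interface of ATP synthase dimers (chromosome 14, 2325308 to 2326436 in Rnor_6.0), was at 20.1, 21.6 and 21.7 CPM in t-PBS and at 21.1, 26.4 and 27.4 CPM in t-DHEA livers. The second and the third t-DHEA livers lay above all others, and t-DHEA rat 1 lay among the t-PBS livers. The log2 fold change of Atp5i was 0.24 ± 0.12 (SE), with a 95% interval from -0.04 to 0.52. Without t-DHEA rat 1 it was 0.35. Atp5l, subunit g, which sits beside subunit e in the membrane, was at 99.96, 115 and 109 CPM in t-PBS and at 121, 122 and 115 CPM in t-DHEA livers. Its log2 fold change was 0.14 ± 0.09 (SE, adjusted p = 0.986 in edgeR's quasi-likelihood test), with the highest t-PBS and the lowest t-DHEA liver almost level, and it was 0.09 without t-PBS rat 1. Across the 7 tested rows of the stalk and membrane part, all estimates were above 0, from 0.01 for Atp5o, the stalk subunit that confers oligomycin sensitivity, to that of Atp5i.

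Atp5s and Atp5sl match the naming pattern but are now named Dmac2l and, for a complex I assembly factor, Dmac2. Their rows are counted with complex V throughout. Atp5s was the weakest tested row of its group at 2.02 FPKM, and its log2 fold change of 0.14 became -0.14 without t-DHEA rat 2.

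To show what regulatory sequence accompanies these genes, promoter windows from 250 bases before to 50 bases after the annotated start were taken from RefSeq (GRCr8), where 69 of the 80 different member names matched, 54 by symbol and 15 by an older symbol. Motif letters were searched on both strands. GCGCATGC, the core bound by NRF1, a regulator of respiratory genes, was found in 13% of the member windows and in 2.47% of all 33469 windows. CCGGAAGT, bound by GABP (NRF2), was in 11.6% and 3.81%, AAGATGGC, bound by YY1, in 20.3% and 3.17%, and AAGGTCA, bound by ERR alpha, in 13% and 4.61%. GGGCGG, the common GC box, was in 39.1% and 33.1%. No window held both the NRF1 and the GABP letters, and 43 of the 69 held none of the NRF1, GABP and YY1 letters. These motifs do not contain one another, and a match describes letters only. The windows of the rows with the lowest p (Atp5i, RefSeq symbol Atp5me; Ndufs5) and with the lowest estimate (Ndufb8) are printed 5′ to 3′ on the strand of the gene with matches to the NRF1, GABP, YY1 and ERR alpha letters in capitals.
Atp5i, chr14:1464610-1464909, plus strand: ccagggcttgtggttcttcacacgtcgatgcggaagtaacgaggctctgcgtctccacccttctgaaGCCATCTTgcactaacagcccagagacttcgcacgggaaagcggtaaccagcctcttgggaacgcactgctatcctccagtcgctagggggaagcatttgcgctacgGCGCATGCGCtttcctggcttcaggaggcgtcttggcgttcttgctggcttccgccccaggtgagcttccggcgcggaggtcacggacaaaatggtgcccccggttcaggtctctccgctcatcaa
Ndufs5, chr5:141264353-141264652, minus strand: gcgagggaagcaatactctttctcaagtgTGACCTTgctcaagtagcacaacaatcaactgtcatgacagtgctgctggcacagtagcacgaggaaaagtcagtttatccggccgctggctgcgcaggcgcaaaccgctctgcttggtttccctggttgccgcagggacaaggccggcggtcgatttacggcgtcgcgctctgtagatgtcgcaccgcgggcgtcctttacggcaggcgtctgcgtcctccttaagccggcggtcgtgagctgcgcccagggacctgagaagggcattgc
Ndufb8, chr1:253362887-253363186, minus strand: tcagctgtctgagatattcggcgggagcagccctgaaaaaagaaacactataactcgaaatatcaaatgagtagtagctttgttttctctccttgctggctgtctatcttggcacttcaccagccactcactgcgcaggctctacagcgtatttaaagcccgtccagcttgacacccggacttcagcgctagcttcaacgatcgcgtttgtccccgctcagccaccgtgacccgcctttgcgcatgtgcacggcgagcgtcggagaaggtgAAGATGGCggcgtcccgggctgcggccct
The Atp5i window held the NRF1 letters on both strands, overlapping from 76 bases before the start, and the YY1 letters on the opposite strand. The Ndufs5 window held the ERR alpha letters alone of these, and the Ndufb8 window the YY1 letters from 21 bases after the start.

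The subunits varied together between livers of the same group. Over the 73 rows, the median deviation of log2 CPM from the mean of the row came to -0.13, 0.04 and 0.00 for the t-PBS livers in order of rat number, and to -0.08, 0.06 and 0.11 for the t-DHEA livers. Over all rows together, the livers numbered 1 of both groups were thus the low ones. In complex II, t-DHEA rat 2 at -0.018 was just below t-DHEA rat 1 at -0.011. t-PBS rat 1 was the lowest liver for 39 rows (53.4%), against 14.5% of all genes tested. t-DHEA rat 1 was the lowest for 26 more, and the share over all genes was not computed for that liver. t-DHEA rat 3 was the highest liver for 30 rows (41.1%), against 15.4% of all genes. All 4 rows of complex II and 8 of the 12 rows of complex IV were lowest in t-PBS rat 1, while 5 of the 7 rows of complex III were lowest in t-DHEA rat 1.

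**Figure D3:**
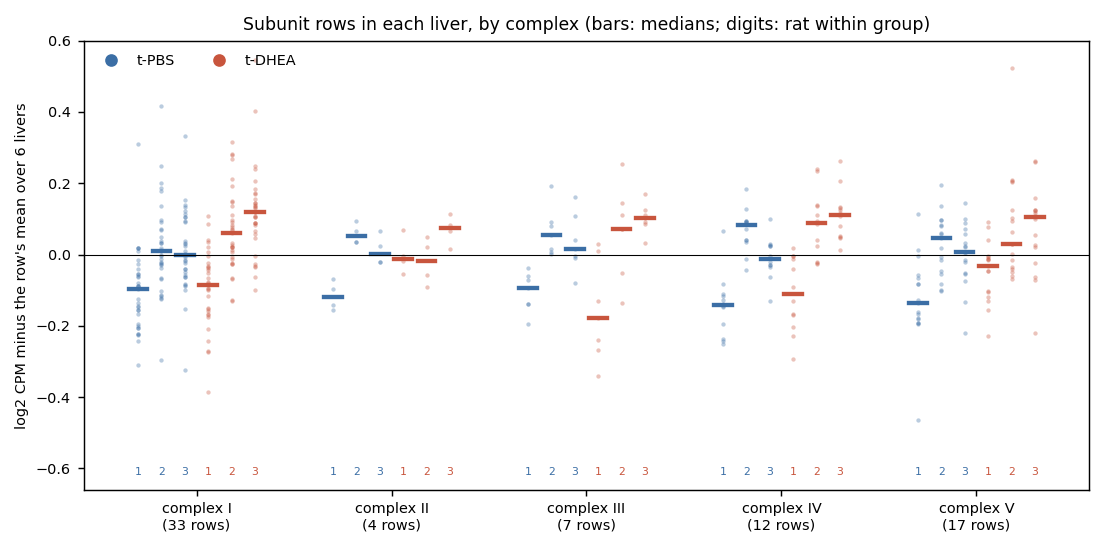
Deviation of log2 CPM from the mean of each row over the 6 livers (points, 1 per subunit row) with the median of each complex in each liver (bars); blue is t-PBS, red is t-DHEA, and digits give the rat. In all 5 complexes t-PBS rat 1 lies below 0 and t-DHEA rat 3 above it, and the 2 groups overlap.

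The summed level of all 85 rows was 6689, 7597 and 7328 CPM in t-PBS and 7048, 7455 and 7807 CPM in t-DHEA livers, or 7204 ± 467 and 7437 ± 380 (SD, n = 3 each). The difference between the means was smaller than either standard deviation. The ATP synthase alone accounted for 3192 ± 219 CPM in t-PBS and 3311 ± 150 CPM in t-DHEA, complex I for 1783 ± 93.0 and 1835 ± 102, and complex IV for 833 ± 58.7 and 868 ± 76.3. The enzymes of the tricarboxylic acid cycle, the matrix pathway that feeds the chain, were also lowest in t-PBS rat 1, with summed levels of 1392, 1573 and 1605 CPM in t-PBS and 1529, 1628 and 1621 CPM in t-DHEA.

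Among the subunit rows, the low values of t-DHEA rat 1, but not those of t-PBS rat 1, went with transcript length. The subunits had short transcripts, with a median summed exon length of 711 bases against 2501 for all genes tested. The 20 rows of up to 500 bases had a median log2 fold change of 0.11. It was 0.03 and 0.05 in the next classes of 21 and 18 rows, and 0.03 for the 14 rows above 1500 bases. In t-DHEA rat 1 the deviations in these 4 classes were -0.15, -0.12, -0.03 and -0.02, from short to long. In t-DHEA rat 2 they were 0.12, 0.06, 0.06 and -0.03, and in t-DHEA rat 3 they were 0.13, 0.12, 0.06 and 0.10. In t-PBS rat 1 they were -0.16, -0.09, -0.11 and -0.13, with no order by length. The 353 genes of up to 500 bases in the whole table moved the same way but less, with a median log2 fold change of 0.05. Their deviation was -0.06 in t-DHEA rat 1, 0.06 in t-DHEA rat 2, 0.08 in t-DHEA rat 3 and -0.04 in t-PBS rat 1. Over all genes tested, the classes from short to long gave -0.04, -0.01, -0.02 and 0.01 in t-PBS rat 1. In t-DHEA rat 1 they gave -0.06, -0.07, -0.04 and 0.01, so in both rats only the class above 1500 bases lay above 0. The part of transcript length in the result was not tested.

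**Figure D4:**
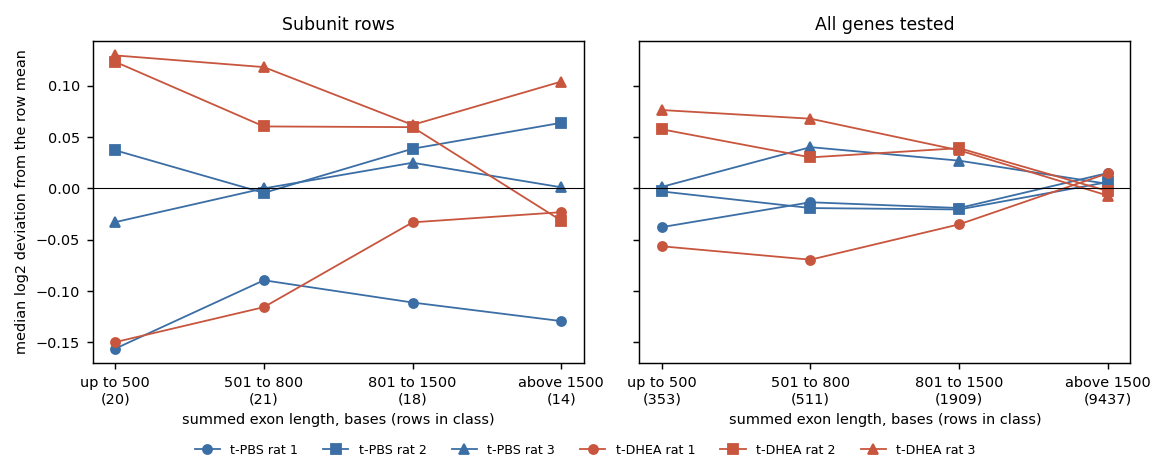
Median deviation of log2 CPM from the row mean in each liver by class of summed exon length, for the subunit rows (left) and for all genes tested (right); numbers of rows are in parentheses. In t-DHEA rat 1 the deviation is lowest in the short classes and near 0 above 1500 bases, while t-PBS rat 1 lies low in every class of the subunits.

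Of the 85 rows, 12 could not be tested, and 7 of these were at 0 in all 6 livers (8.24%, against 44.5% of the whole table). In complex I these were Ndufa1, an essential small subunit encoded on the X chromosome, and the copy Ndufb4l1. In complex IV they were Cox6a2, the heart and skeletal muscle isoform of subunit 6a, Cox7b2 and Cox8c, isoforms best known from testis, and the copy Cox6c1. In complex V it was the row Atp5f1 on chromosome 2 from 208408890. No row of complexes II and III was at 0 in every liver.

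For tissue isoforms, the partner used in liver was high. Cox6a1 held 10964 counts over the 6 livers and Cox6a2 none, and Cox7b held 7264 and Cox7b2 none. Cox8a held 7649 counts, with 2 at Cox8b, a muscle isoform, and none at Cox8c. Cox6b2, a testis isoform, had 25 counts, and Ndufa4l2, a paralogue of Ndufa4 known to be induced by hypoxia, had 5 counts, 2 in t-DHEA rat 1 and 3 in t-DHEA rat 3. None of these low rows passed the filter on low counts, so no comparison between the groups was made.

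For subunits that every cell needs, a value of 0 cannot be read as no expression. Ndufa1 and its neighbour Rnf113a1 were both at 0. The product of Atp5f1, subunit b of the stalk, is required in the ATP synthase, yet its rows on chromosome 2 held 0 and 10 counts over all 6 livers, and the overlapping rows Wdr77, LOC100911453 and LOC100363178 held 0. Rows described as Ndufs6, another needed subunit of complex I, held 4 and 0 counts. How reads on overlapping or duplicated loci were counted is not given in the sources used here, and these subunits are left without a measured level.

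Several subunits were split over a spliced gene and a single-exon row elsewhere in the genome. Cox7a2 had 767 counts at its spliced locus on chromosome 8 and 2835 at a single-exon row of 252 bases on chromosome 14, which took 76.2% to 82.2% of the pair in each liver. Cox6b1 had 2443 counts on chromosome 1 and 2772 at a single-exon row on chromosome 2. In the other pairs the single-exon row was minor, with 808 counts at Ndufv3-ps1 against 4617 at Ndufv3, 75 at Ndufa13 on chromosome 7 against 2603 on chromosome 16, 93 at Atp5hl1 against 8831 at Atp5h, and 5 at Uqcr10 on chromosome 15 against 2798 on chromosome 14. Reads that fit both rows of a pair could have been assigned to either, so the levels of these rows are uncertain. The rows of a pair could differ in sign, as with a log2 fold change of -0.07 for the single-exon and 0.17 for the spliced Cox7a2, and neither was called. When rows of 1 name were summed, 0 of 70 genes were called.

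**Figure D5:**
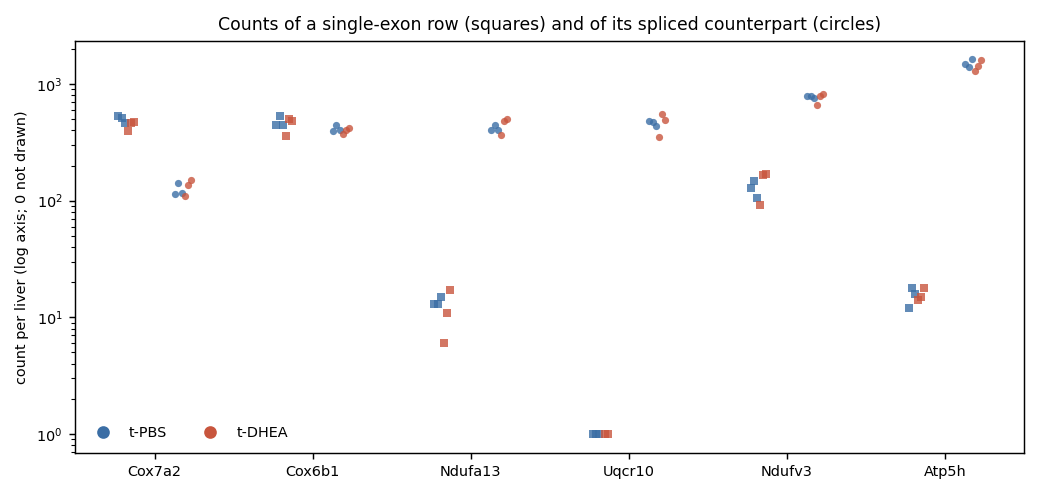
Counts per liver (log axis) at a single-exon row (squares) and at its spliced counterpart (circles) for 6 subunits; blue is t-PBS and red is t-DHEA. For Cox7a2 the single-exon row is above the spliced gene in every liver, for Cox6b1 both are similar, and for the others the spliced gene is far above.

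The naming patterns missed some subunits. A search of the descriptions, made after values were seen, found 18 further rows, of which 6 could be tested, 7 were at 0 and none was called. The main one was Cox4i1, the ubiquitous form of the largest nuclear subunit of complex IV, with 22748 counts, 391 FPKM and a log2 fold change of 0.11. The lowest p was that of LOC688963, described as similar to the complex I subunit Ndufb4, with a log2 fold change of 0.28 (adjusted p = 0.957 in edgeR's quasi-likelihood test). A single-exon row on the X chromosome described as the same subunit, LOC100361934, had 253, 206 and 210 counts among the t-PBS livers. It had 81, 263 and 93 among the t-DHEA livers, so that t-DHEA rats 1 and 3 stood apart from the other 4 livers. Its log2 fold change was -0.53 ± 0.36 (SE, adjusted p = 0.986 in edgeR's quasi-likelihood test).

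The subunits encoded by the mitochondrial genome did not lean the same way. Of 13 such genes, 2 had a log2 fold change above 0, the median was -0.03 and none was called. They took 6.47% to 7.69% of all counts in a liver, against 0.666% to 0.791% for the 85 nuclear rows, and the ratio of the summed levels was 10.3, 9.73 and 9.92 in t-PBS and 9.37, 9.55 and 9.28 in t-DHEA livers. Mt-co1, the catalytic subunit of complex IV, averaged 15014 FPKM. The difference between these genes and the 85 nuclear rows was not tested, and the rows were counted in the same libraries. Nuclear genes outside the naming patterns went both ways. Of 6 tested rows found by description, 5 had a log2 fold change above 0 (median 0.13). Of 8 listed subunits and electron carriers, 2 did (median -0.02), and Cox4i1 was in both sets.

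Genes that build and serve the chain were counted beside the 4.95% called over all genes, a share at which lists of this size hold few calls. Of 13 complex I assembly factors tested, 11 had a log2 fold change above 0, and 1, Ndufaf6, rose by 0.47 ± 0.19 (SE, adjusted p = 0.957 in edgeR's quasi-likelihood test). None of 28 assembly factors of complexes II to V was called, nor of 14 enzymes of the tricarboxylic acid cycle, of 8 further subunits and electron carriers such as cytochrome c (Cycs), or of 70 mitochondrial ribosomal proteins. Of 15 regulators of mitochondrial biogenesis, such as Ppargc1a, Nrf1 and Tfam, 3 had a log2 fold change above 0, the median was -0.08 and none was called. Of 7 nucleotide and proton carriers tested, Ucp2, an inner membrane carrier of the uncoupling protein family, fell by 0.28 (adjusted p = 0.957 in edgeR's quasi-likelihood test), and Ucp1, Ucp3 and Slc25a31 were at 0. Of 94 rows tested under the naming pattern of cytosolic ribosomal proteins, 38 had a log2 fold change above 0. The pattern can also match other genes, such as ribosomal protein kinases. Of the 94 rows, 3 were called, all lower in t-DHEA. The rows called, Rpl30, Rps4y2 and Rpl12, lay between 0.85 and 20.5 CPM in single livers. Of the 130 rows of this list, 19 were at 0 in every liver.

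Markers of other cell types were counted beside the same 4.95%. Of 5 mesothelial markers tested, 4 were called lower in t-DHEA, as were 3 of 7 stellate cell and fibroblast markers. Of 5 bile duct markers, 2 were called lower (Krt19, which is in both the mesothelial and the bile duct list, and Krt7). Called higher were 3 of 5 red blood cell markers and 1 of 5 endothelial markers. None of these markers passed after adjustment. Stellate cell and fibroblast markers summed to 526, 697 and 599 CPM in t-PBS and 497, 427 and 515 CPM in t-DHEA livers. No hepatocyte, Kupffer cell or lymphocyte marker was called. The part of these shifts in the levels of the subunits was not tested.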

How the data were processed

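Liver RNA from 3 t-PBS and 3 t-DHEA rats was sequenced from paired-end TruSeq libraries. The authors filtered reads, mapped them with HISAT2 2.0.4 to Rnor_6.0 and deposited raw counts per gene from StringTie 1.3.0. Exon lengths were not taken from an annotation but worked out for each row from the deposited counts, FPKM values and library totals. With the same length for all livers of a row, deposited FPKM values were reproduced within a relative difference of 0.000117. This shows a shared divisor per row, and that the divisor is the summed exon length was assumed. Rows were labelled single-exon where this length matched their span. Annotation release and strandedness are not given in the sources used here, so overlapping and antisense genes are uncertain. The study ran edgeR on FPKM, but here the count test was run on counts.

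Counts were fitted with edgeR 4.0.16 in R 4.3.3 (TMM, default filter, quasi-likelihood test) on the whole table, and p-values were adjusted by Benjamini-Hochberg over the 12210 genes that passed. CPM values use TMM library sizes. Standard errors came from the test statistic. Alternatives were DESeq2 1.42.0, limma 3.58.1 on log2(FPKM + 0.1) and log2(FPKM + 1), other normalizations and filters, a replicate block, each liver left out, and 3 alternatives chosen after seeing the data. The fit was tested on simulated data.

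The livers are separate rats, so p-values measure the spread between rats given the same pooled inoculum, not the spread between donor pools. With 3 against 3 an exact permutation test cannot go below 0.1. No library was a duplicate, since chi-square over degrees of freedom was 15.3 or more between the counts of any 2 livers. Intervals on 0 counts cover counting error only. The members and lists were chosen with earlier results of these data known. Named were, per complex, the 3 rows with the lowest p, the 2 highest and the lowest tested by mean FPKM, all rows at 0, tissue isoforms with their partners, and in other lists the genes called and up to 3 with the lowest p. Others were chosen after their values were seen. The values of 1 tested row are not reported here, though it counts in the totals.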

Additional observations from a re-analysis of the deposited data

How the results depend on the processing

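The count of subunit rows meeting the criteria was 0 in all fits but those leaving out a liver, where it ranged from 0 to 5 of 73, and with a replicate block it was 0 of 73 (539 genes over the table). The numbers share no origin in the labels, deviations of same-numbered livers correlated at -0.0571, -0.0592 and -0.0551, and 0 of 6 livers correlated best with its own number, so the block pairs nothing. Medians of the complexes moved by less than the spread between livers, but with a liver left out those of complexes II, III and IV fell as low as -0.02, -0.02 and -0.01, and those of III and IV rose to 0.12 each without t-DHEA rat 1. On FPKM, where the median of all genes was -0.04, those of complexes II and III were -0.01 and -0.03. For the 31 rows named by rule, 442 alternative values kept direction and side of the threshold, 44 changed sign and 5 newly met the criteria, and Ndufa7, outside that rule, also met them without t-DHEA rat 1. The cause of the changes was not tested.

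On log2(FPKM + 0.1), log2 fold changes became -0.00387 for Sdha, -0.0103 for Sdhb, -0.0325 for Sdhc, -0.00559 for Atp5a1 and -0.00149 for Cox6b1 on chromosome 1, and on log2(FPKM + 1) -0.00386, -0.0103, -0.0321, -0.00559 and -0.00154. Uqcrc2 turned to 0.000527 with DESeq2, 0.000507 with DESeq2 size factors, 0.00648 without a filter and 0.00742 with the replicate block. Without a filter Cox6a1 became 0.00244 and Cox6b1 on chromosome 2 became 0.00213. The median of all genes was itself -0.0367 on log2(FPKM + 0.1) and -0.0293 on log2(FPKM + 1). It was 0.00813 without a filter, against 0.00132 in the main fit. With same-name rows summed Ndufa13 on chromosome 7 became 0.185 and Cox6b1 on chromosome 2 became 0.0133.

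Leaving out 1 liver at a time, signs turned within these ranges: Ndufa13 on chromosome 7 -0.578 to 0.0923, Sdhd -0.00777 to 0.119, Sdha -0.00946 to 0.08, Sdhb -0.0347 to 0.0805, Sdhc -0.0266 to 0.0338, Uqcrb -0.175 to 0.0185, Uqcr10 on chromosome 14 -0.0178 to 0.227, Uqcrfs1 -0.0263 to 0.138, Uqcrc2 -0.0904 to 0.106, Cox6a1 -0.0732 to 0.125, Atp5a1 -0.0412 to 0.0906, Atp5s -0.142 to 0.274, Ndufv3 -0.0102 to 0.0992, Cox6b1 on chromosome 1 -0.0276 to 0.0951, Cox6b1 on chromosome 2 -0.0736 to 0.0986, Cox8a -0.0187 to 0.178.

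Depth limits the rows under about 100 counts, and a difference of 1.2-fold was within the interval for most rows.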
